A study of Homo sapiens with 12 samples.

Results

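The DNA repair genes that act on the base damage left by temozolomide were followed across DBTRG and U87, a pair of established human glioblastoma cell lines, on bead arrays. Members were all probes whose platform annotation symbol was MGMT, ALKBH2, ALKBH3, MSH3, MSH6, PMS2, MPG or APEX1, which gave 14 probes of 8 genes among the 47323 probes of the array. Of these genes, 7 passed the filter on dim probes and were among the 11423 genes tested. MGMT did not pass it in either line.

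The study compared 6 groups of 2 arrays each. DBTRG cells were left untreated or received 10 µM Y15, which inhibits focal adhesion kinase. U87 cells were left untreated or received temozolomide (TMZ), 10 µM Y15, or both agents together. Treatment lasted 24 h in every treated group, and the TMZ dose was given as 20 µM in the sample titles and as 100 µM in the series' design text. No label gives the replicates of a group as separate cultures, so the p-values cover only array-to-array spread, and that spread may be technical. The 3 U87 treatments were each compared with the same untreated U87 arrays, so those comparisons share their controls, and the combination was also compared with each single agent.

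TMZ methylates DNA bases, chiefly at the N7 and O6 positions of guanine and the N3 position of adenine. MGMT transfers the methyl group from O6-methylguanine to itself, which reverses the lesion in a single step, and methylation of the CpG island at its promoter silences the gene in many glioblastomas. Where O6-methylguanine persists, it pairs with thymine during replication and the mismatch is recognised by the mismatch repair system, whose loss makes cells tolerant of the drug. N-methylated bases are removed by base excision repair, and a smaller class of N-methyl lesions is reversed by the AlkB-family demethylases ALKBH2 and ALKBH3.

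The promoters of 5 members are shown as background. They are those of MGMT, whose promoter CpG island is the known site of its silencing, and of the 2 demethylases that both rose after Y15 in DBTRG. The others are the 2 MutS genes with a match to the E2F motif, a sequence bound by the E2F factors that drive S-phase genes. Neither DNA methylation nor E2F binding was measured on these arrays. Each is the RefSeq window of 300 bases on GRCh38.p14, from 250 bases before to 50 bases after the annotated start, written 5′ to 3′ on the gene's strand. The windows are chr10:129466991-129467290 (plus strand) for MGMT, chr12:109093423-109093722 (minus strand) for ALKBH2, chr11:43880581-43880880 (plus strand) for ALKBH3, chr2:47782895-47783194 (plus strand, the first of 4 listed starts) for MSH6 and chr5:80654402-80654701 (plus strand) for MSH3. Capitals mark CpG pairs in MGMT, ALKBH2 and ALKBH3, and E2F matches in MSH6 and MSH3.
MGMT: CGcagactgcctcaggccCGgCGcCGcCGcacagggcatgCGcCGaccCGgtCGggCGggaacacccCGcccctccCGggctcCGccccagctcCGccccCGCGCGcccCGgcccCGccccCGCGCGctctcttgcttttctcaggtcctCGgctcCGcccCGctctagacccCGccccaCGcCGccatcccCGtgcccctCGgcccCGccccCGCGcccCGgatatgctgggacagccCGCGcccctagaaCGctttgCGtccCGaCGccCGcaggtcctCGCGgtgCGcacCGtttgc
ALKBH2: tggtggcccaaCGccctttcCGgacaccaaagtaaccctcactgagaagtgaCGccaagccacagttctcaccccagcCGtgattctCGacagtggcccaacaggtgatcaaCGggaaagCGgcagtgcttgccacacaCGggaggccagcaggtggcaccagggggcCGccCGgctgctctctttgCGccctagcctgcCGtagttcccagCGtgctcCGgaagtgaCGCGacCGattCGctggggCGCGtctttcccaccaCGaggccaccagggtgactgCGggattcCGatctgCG
ALKBH3: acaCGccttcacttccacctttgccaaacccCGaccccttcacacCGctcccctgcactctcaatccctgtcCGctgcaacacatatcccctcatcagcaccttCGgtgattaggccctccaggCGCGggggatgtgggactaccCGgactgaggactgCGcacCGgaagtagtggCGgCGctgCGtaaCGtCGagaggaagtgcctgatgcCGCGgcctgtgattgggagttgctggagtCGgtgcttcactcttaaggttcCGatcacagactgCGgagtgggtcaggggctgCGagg
MSH6: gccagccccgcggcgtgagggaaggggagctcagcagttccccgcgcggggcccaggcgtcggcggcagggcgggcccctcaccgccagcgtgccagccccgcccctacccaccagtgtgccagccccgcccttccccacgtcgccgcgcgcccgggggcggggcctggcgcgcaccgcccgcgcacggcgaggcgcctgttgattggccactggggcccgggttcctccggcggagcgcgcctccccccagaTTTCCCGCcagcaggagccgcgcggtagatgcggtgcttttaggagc
MSH3: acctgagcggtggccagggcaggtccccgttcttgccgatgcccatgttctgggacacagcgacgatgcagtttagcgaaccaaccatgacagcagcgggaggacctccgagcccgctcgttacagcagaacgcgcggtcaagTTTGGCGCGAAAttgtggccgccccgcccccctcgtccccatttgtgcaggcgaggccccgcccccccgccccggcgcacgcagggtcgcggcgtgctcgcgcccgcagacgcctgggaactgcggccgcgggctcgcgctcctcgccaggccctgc

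All 8 genes had a window in the RefSeq table. The MGMT window held 45 CpG pairs, and 3.48% of the 35116 promoters in the table held at least as many, against a median of 14. The windows of the other members held fewer, with 24 CpG pairs in ALKBH2 and 21 in ALKBH3. The E2F search used the letters TTTCCCGC, TTTCGCGC, TTTGCCGC and TTTGGCGC on both strands, which occur in 3.31% of all promoters of this length. MSH6 held 1 match in the first of its 4 windows and none in the other three. MSH3 held 2 matches that overlap, TTTGGCGC and GCGCGAAA, the latter being the searched TTTCGCGC read on the other strand, and PMS2 held 1 match in each of its 2 overlapping windows. A match is a description of the letters in the window.

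Replicate arrays of a group correlated at r = 0.986 to 0.994 over the 11423 tested genes, and 14437 to 16889 probes were detected per array. The glioma markers NES, VIM and CD44 were detected in 12 of 12 arrays, OLIG2 in 8, SOX2 in 6 and FABP7 in 4, whereas the astrocytic markers GFAP and S100B were detected in 0. Of the leukocyte markers, PTPRC and CD3E were detected in 0 arrays, CD68 in 12, CD14 in 9 and AIF1 in 6. Of the endothelial markers, VWF, CDH5 and CLDN5 were detected in 0 arrays and PECAM1 in 5. Of the epithelial markers, KRT19, CDH1 and KRT5 were detected in 0 arrays and EPCAM in 4.

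MGMT, the suicide enzyme that repairs O6-methylguanine, was not detected in any array of either line. In DBTRG its signal was 92.6 and 90.4 without treatment and 98.7 and 89.2 with Y15. In U87 it was 103.9 and 99.5 without treatment, 96.7 and 103.5 with TMZ, 98.5 and 97.5 with Y15, and 85.3 and 94.2 with both. Every one of these lay below the lowest signal that reached a detection p under 0.01 on its own array, a limit that ran from 117.7 to 144.8. The detection p-value, which sets a signal against the negative control beads, ran from 0.51 to 0.942 for the MGMT probe, with a median of 0.789. No level and no fold change of MGMT can be given from these arrays, including after TMZ. A single probe represented the gene, so a transcript that lacks its sequence would be missed. With the filter on dim probes removed, the log2 change of its background signal was 8.4e-05 ± 0.09 for TMZ in U87. For Y15 it was -0.06 ± 0.09 in DBTRG and 0.145 ± 0.09 in U87. These values compare background with background, so they cannot show whether MGMT changed.

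**Figure D1:**
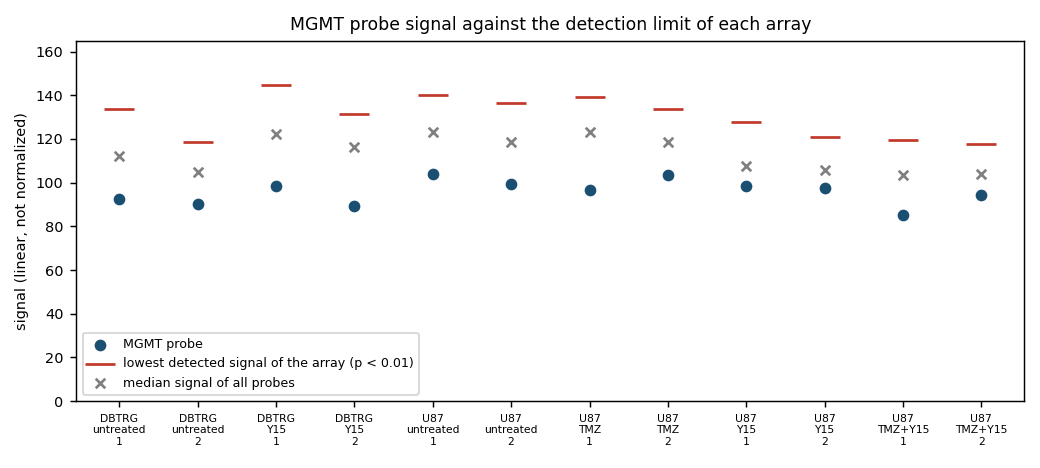
The vertical axis is the linear, unnormalized signal, and the 12 arrays are ordered by group along the horizontal axis. Points are the MGMT probe, red bars are the lowest detected signal of the array and crosses are the median of all probes; every MGMT point (85.3 to 103.9) lies below both.

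The other direct-reversal genes, ALKBH2 and ALKBH3, were detected in 12 of 12 arrays, and both rose after Y15 in DBTRG. ALKBH2 removes methyl groups from 1-methyladenine and 3-methylcytosine in double-stranded DNA. Its normalized log2 level in DBTRG was 7.51 and 7.37 without treatment and 8.34 and 8.20 with Y15. Both treated arrays lay above both untreated arrays, a change of 0.83 ± 0.15 (1.78-fold, limma adjusted p = 0.00143). In bulk arrays such as these, more cells with a transcript and more transcript per cell cannot be told apart.

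ALKBH3 acts on the same lesions, with a preference for single-stranded DNA and RNA. Its log2 level in DBTRG was 8.25 and 7.87 without treatment and 9.45 and 9.23 with Y15. The groups did not overlap, and the rise of 1.28 ± 0.14 (2.43-fold, limma adjusted p = 8.48e-05) was the largest change of any tested member in any treatment comparison. The untreated pair was the less even one, differing by more than the treated pair.

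In U87 the direction of the ALKBH genes under Y15 depended on how the arrays were scaled. The unnormalized signal of ALKBH2 was 352.7 and 319.5 without treatment and 277.2 and 283.0 with Y15, which is lower in both treated arrays. After quantile normalization its log2 level was 7.59 and 7.57 without treatment and 7.99 and 8.16 with Y15, which is higher in both. The change was 0.49 ± 0.15 on that scale (limma adjusted p = 0.0374), and -0.18 (adjusted p = 0.449) when each array was centred on its median instead. Centring moved the median change of all genes in this comparison to -0.60, and 413 genes were then called higher and 6987 lower, against 984 and 1532 after quantile normalization. Relative to that shift, ALKBH2 stood higher on both scales.

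ALKBH3 in U87 had log2 levels of 8.44 and 8.39 without treatment, 8.45 and 8.40 with TMZ, 8.88 and 8.78 with Y15, and 9.13 and 8.96 with both agents. The arrays with TMZ overlapped the untreated ones, whereas those with Y15, alone or combined, lay above them. Under Y15 alone the change of 0.41 ± 0.14 did not pass the threshold (limma adjusted p = 0.0647), and it was -0.30 under median centring (adjusted p = 0.251). Under the combination it was 0.63 ± 0.14 against untreated cells (1.55-fold, limma adjusted p = 0.0111) and 0.62 ± 0.14 against TMZ alone (limma adjusted p = 0.0109), and 0.43 (adjusted p = 0.18) against untreated cells under median centring. Of the 4 arrays behind the comparison of the combination with untreated cells, leaving out any but the second combination array ended the call, with adjusted p-values from 0.0521 to 0.0796, and the comparison with TMZ alone behaved alike (0.0519 to 0.0777).

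For ALKBH2 the U87 arrays with TMZ read 7.43 and 7.87, on either side of the untreated pair, and those with both agents read 8.05 and 8.06. It was higher by 0.47 ± 0.15 with the combination than in untreated cells (limma adjusted p = 0.0439), with 0.28 (adjusted p = 0.33) under median centring. Leaving out any 1 of the 4 arrays of that comparison ended the ALKBH2 call, and the same held for Y15 alone, where the adjusted p reached 0.182.

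**Figure D2:**
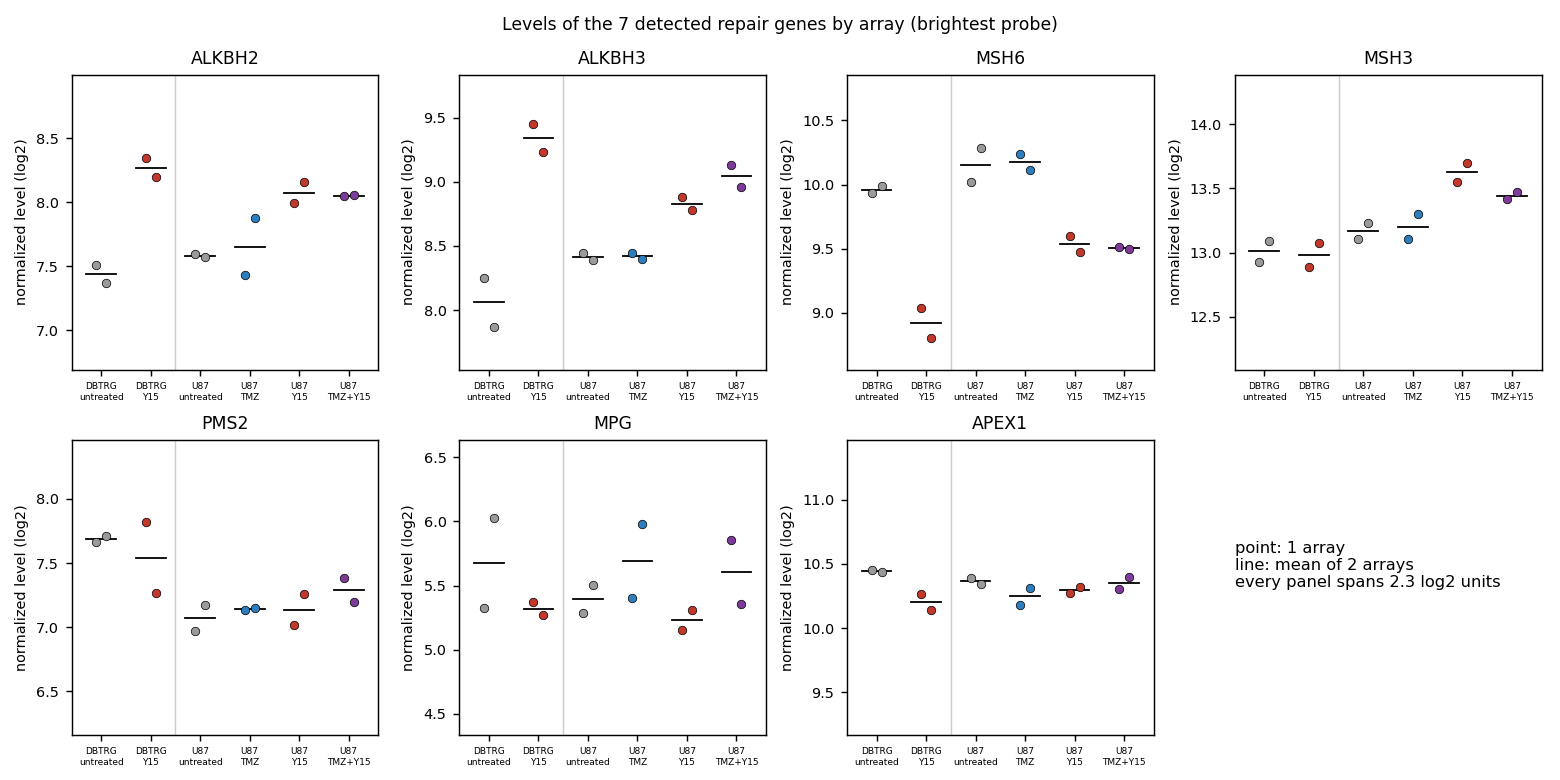
Each panel shows the normalized log2 level of 1 gene (brightest probe) on the vertical axis for the 6 groups on the horizontal axis, with a point per array and a line at the mean of 2 arrays; every panel spans 2.3 log2 units. In DBTRG the ALKBH2 and ALKBH3 points with Y15 lie above the untreated points and the MSH6 points lie below; the higher ALKBH2 and ALKBH3 levels of U87 with Y15 alone hold after quantile normalization and turn lower under median centring.

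The Y15 response of ALKBH3 was larger in DBTRG than in U87, with a difference of 0.87 ± 0.20 (limma adjusted p = 0.0137). ALKBH3 was the only member for which that difference passed the threshold, and 20% of all tested genes did. It passed under each of the 18 alternatives run, with adjusted p-values up to 0.0488. The difference for ALKBH2, 0.34 ± 0.21, did not pass (limma adjusted p = 0.282). Under median centring the differences were 1.69 for ALKBH3 (adjusted p = 0.000566) and 1.09 for ALKBH2 (adjusted p = 0.00456), beside a median of 0.70 over all genes.

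Among the mismatch repair members, MSH6 fell after Y15 in both lines. MSH6 forms the MutSα dimer, which recognises the O6-methylguanine:thymine pair. In DBTRG its log2 level was 9.93 and 9.99 without treatment and 9.04 and 8.80 with Y15. The treated arrays lay well below the untreated ones, and the level fell by 1.04 ± 0.13 (2.06-fold lower, limma adjusted p = 0.000168).

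In U87, MSH6 read 10.02 and 10.28 without treatment, 10.24 and 10.11 with TMZ, 9.60 and 9.47 with Y15, and 9.51 and 9.50 with both. The TMZ arrays lay within the untreated range and all 4 arrays with Y15 lay below it. The change was -0.62 ± 0.13 with Y15 (1.53-fold lower, limma adjusted p = 0.00809) and -0.64 ± 0.13 with both agents (1.56-fold lower, limma adjusted p = 0.00625). Against TMZ alone the combination was lower by a log2 change of -0.67 ± 0.13 (limma adjusted p = 0.0048). Under median centring the ALKBH genes changed sign with Y15 alone but not with both agents. MSH6 was lower under median centring too, at -1.27 with Y15 and -0.82 with both. Its call for Y15 was lost without the second untreated array (adjusted p = 0.0787) or the second Y15 array (adjusted p = 0.0567), and that for the combination without the second untreated array (adjusted p = 0.063). Its fall was not shown to differ between the lines (difference -0.42 ± 0.18, limma adjusted p = 0.133). Under median centring that difference was 0.40 (limma adjusted p = 0.23).

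MSH3, which forms the MutSβ dimer that binds insertion and deletion loops, was read by 2 probes that went in opposite directions. The brighter probe (ILMN_2077130) had log2 levels of 12.93 and 13.09 in untreated DBTRG and 12.89 and 13.07 with Y15, which overlap. In U87 it read 13.11 and 13.23 without treatment, 13.10 and 13.30 with TMZ, 13.55 and 13.70 with Y15, and 13.42 and 13.47 with both. It was higher with Y15 alone, by 0.46 ± 0.13 (limma adjusted p = 0.0274), a call that each of the 4 arrays could end when left out (adjusted p from 0.0615 to 0.153), and the 0.27 ± 0.13 with both agents did not pass (adjusted p = 0.148).

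The dimmer MSH3 probe (ILMN_1719471) was detected in 12 of 12 arrays too, and it was lower with Y15 wherever the brighter probe was level or higher. In DBTRG it read 8.97 and 9.16 without treatment and 8.55 and 8.42 with Y15. In U87 it read 8.01 and 7.96 without treatment, 7.69 and 7.83 with TMZ, 7.44 and 7.24 with Y15, and 7.26 and 7.02 with both. Its changes were -0.58 ± 0.14 for Y15 in DBTRG (limma adjusted p = 0.00924), -0.64 ± 0.14 for Y15 in U87 (limma adjusted p = 0.0107) and -0.84 ± 0.14 for the combination (limma adjusted p = 0.00299), adjusted over the 19354 kept probes. It was also 1.08 ± 0.14 higher in untreated DBTRG than in untreated U87 (limma adjusted p = 7.85e-05), where the brighter probe gave -0.16 ± 0.13 (adjusted p = 0.308). No direction is therefore given for MSH3 as a gene. Which transcripts each probe reads was not tested.

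**Figure D3:**
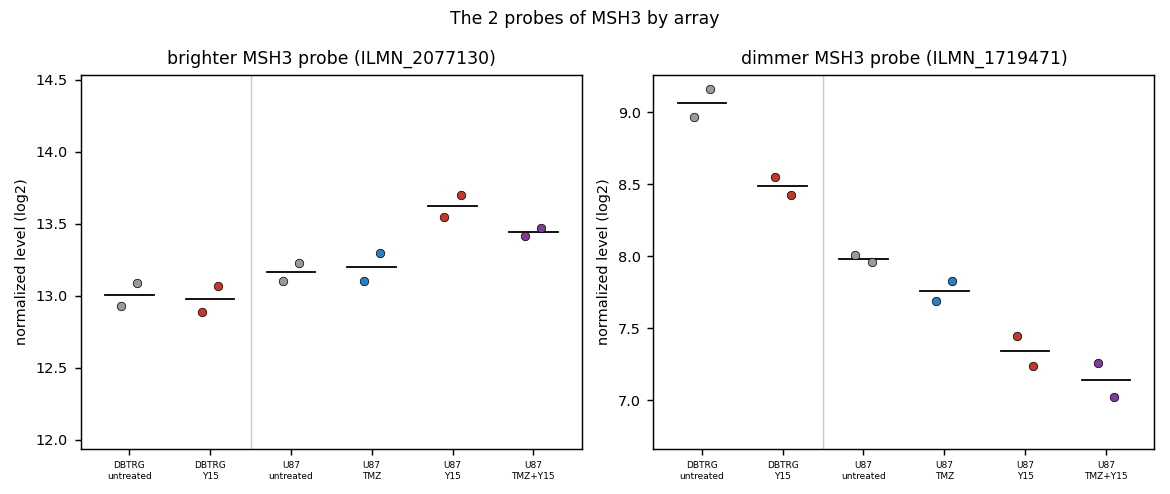
Normalized log2 level of the brighter (left) and dimmer (right) MSH3 probe on the vertical axis for the 6 groups, with a point per array and a line at the mean of 2 arrays. In U87 the brighter probe is higher with Y15 (13.55 and 13.70) and the dimmer probe is lower (7.44 and 7.24).

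PMS2, the endonuclease subunit of the MutLα dimer that acts after mismatch recognition, was not called for any treatment after quantile normalization. Under median centring it was called lower with Y15 in U87 (-0.55, adjusted p = 0.0356) and higher with both agents than with Y15 (0.61, adjusted p = 0.0438), beside medians of -0.60 and 0.43 over all genes. By its brightest probe, which was detected in 12 of 12 arrays, the log2 level in DBTRG was 7.66 and 7.71 without treatment and 7.82 and 7.27 with Y15. In U87 it was 6.97 and 7.17 without treatment, 7.13 and 7.15 with TMZ, 7.01 and 7.26 with Y15, and 7.38 and 7.19 with both. The treated and untreated arrays overlapped in each comparison against untreated cells except that with the combination, where the change was 0.22 ± 0.17 (limma adjusted p = 0.413). PMS2 was higher in untreated DBTRG than in untreated U87, by 0.62 ± 0.17 (1.53-fold, limma adjusted p = 0.0108), and was the only one of the 7 tested members called between the lines, where 59.3% of all genes were called. Leaving out the first untreated U87 array ended that call (adjusted p = 0.0784), as did median centring, which gave 0.15 (adjusted p = 0.577) and called 5 other members lower in DBTRG and none higher. Over all genes median centring called 1494 higher and 5710 lower in that comparison. The other PMS2 probes were detected in 0 and 2 arrays.

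By their brightest probes, the base excision members did not pass the test in any of the 9 comparisons after quantile normalization. Under median centring APEX1 was called lower with Y15 in U87 (-0.68, adjusted p = 0.00506) and in untreated DBTRG than in untreated U87 (-0.48, adjusted p = 0.0352). MPG, the glycosylase that removes 3-methyladenine and 7-methylguanine, was near the detection limit: 2 of its 3 probes were detected in 0 arrays, and the tested one in 1 of 4 DBTRG arrays and 5 of 8 U87 arrays. That probe read 5.32 and 6.02 in untreated DBTRG and 5.37 and 5.27 with Y15, with no detection in the treated pair. In U87 it read 5.28 and 5.50 without treatment, 5.40 and 5.98 with TMZ, 5.16 and 5.31 with Y15, and 5.86 and 5.35 with both. In untreated DBTRG, and in U87 with TMZ or both agents, the replicate arrays lay farther apart than any of the group means. The untreated and Y15-treated DBTRG arrays overlapped (limma adjusted p = 0.312). The largest member change under TMZ alone was also MPG's, 0.30 ± 0.26 (limma adjusted p = 1).

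APEX1, the endonuclease that cuts the abasic site left by the glycosylase, was detected by both of its probes in 12 of 12 arrays. Its brighter probe read 10.45 and 10.44 in untreated DBTRG and 10.27 and 10.14 with Y15. In U87 it read 10.39 and 10.34 without treatment, 10.18 and 10.31 with TMZ, 10.27 and 10.32 with Y15, and 10.30 and 10.40 with both. All 12 values lay between 10.14 and 10.45, the narrowest range of any tested member. The DBTRG arrays with Y15 lay below the untreated ones, but the change of -0.24 ± 0.11 did not pass the threshold (limma adjusted p = 0.105). The dimmer probe gave -0.34 ± 0.13 there (limma adjusted p = 0.0761) and, between the untreated lines, 0.35 ± 0.13 higher in DBTRG (limma adjusted p = 0.0472), where the brighter probe gave 0.08 ± 0.11 (adjusted p = 0.561).

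Counted together, 3 of the 7 tested members were called for Y15 in DBTRG (ALKBH2 and ALKBH3 higher, MSH6 lower), where 37.8% of all tested genes were called (19.4% higher and 18.4% lower). For Y15 in U87, 3 were called (ALKBH2 and, by its brighter probe only, MSH3 higher, MSH6 lower; the dimmer MSH3 probe was lower), against 22% of all genes (8.61% higher and 13.4% lower). For both agents in U87, 3 were called (ALKBH2 and ALKBH3 higher, MSH6 lower), against 23.1% (9.95% higher and 13.2% lower). For both agents against TMZ alone, 2 were called (ALKBH3 higher, MSH6 lower), against 25.3%. With so few members, none of these counts sets the repair genes apart from the background. Under median centring the 3 called for Y15 in U87 were all lower, namely MSH6, PMS2 and APEX1, and the combination kept MSH6 alone. The calls over all genes then split into 2164 higher and 1052 lower for Y15 in DBTRG and into 686 and 1941 for both agents, against 2213 and 2100, and 1137 and 1506, after quantile normalization. For Y15 in U87 they split into 413 and 6987, against 984 and 1532.

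TMZ alone called 0 of the 7 members, and limma called 0.00875% of all genes, which is 1 gene of 11423, with 465 at an unadjusted p under 0.05. None of the 7 members had an unadjusted p under 0.05 there. For the combination against Y15 alone, 0 members were called by limma, 0 had an unadjusted p under 0.05, and 0.306% of genes were called. The departure of the combination from the sum of the single effects on the log2 scale was called by limma for 0% of all genes (950 at an unadjusted p under 0.05) and for 0 members, 0 of them at an unadjusted p under 0.05.

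**Figure D4:**
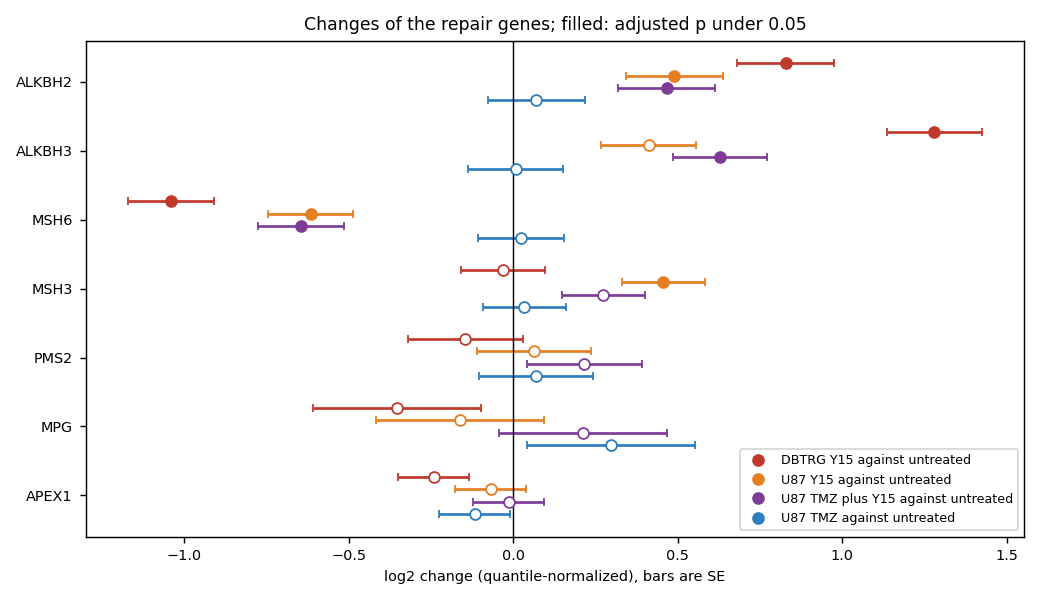
Log2 changes (horizontal axis, quantile-normalized scale) of the 7 tested members for 4 treatment comparisons, which share untreated arrays within U87; bars are the SE of the fit and filled points passed an adjusted p of 0.05. The TMZ points lie at 0.30 or less in size, the MSH6 points with Y15 lie between -1.04 and -0.62, and the ALKBH2 and ALKBH3 points of U87 with Y15 alone turn negative under median centring.

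After quantile normalization, MSH6 varied across the arrays in the same direction as the dividing-cell genes, and ALKBH2 and ALKBH3 in the opposite one. Of 16 proliferation markers, 16 were called lower with Y15 in DBTRG (median log2 change -1.15), 14 with Y15 in U87 (median -0.62) and 14 with both agents (median -0.64). In the same order 18.4%, 13.4% and 13.2% of all genes were called lower. All 16 markers had a change below 0 in each of these comparisons, and 0 were called with TMZ. MKI67, the Ki-67 antigen, fell by 1.85 ± 0.24 in DBTRG (limma adjusted p = 0.000192). The mean level of the 16 markers was 10.11 and 10.21 in untreated DBTRG and 9.10 and 8.95 with Y15. In U87 it was 10.02 and 10.00 without treatment, 10.10 and 10.07 with TMZ, 9.35 and 9.39 with Y15, and 9.34 and 9.34 with both. Under median centring ALKBH2 (-0.18) and ALKBH3 (-0.30) were lower, uncalled, with Y15 alone in U87. In that comparison 16 of 16 markers, and 6987 of all 11423 genes, were called lower on that scale.

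Correlations were taken on the quantile-normalized scale with the mean of each line subtracted, and were not computed under median centring. MSH6 correlated with that marker mean at r = 0.98 over the 12 arrays, ALKBH3 at r = -0.95 and ALKBH2 at r = -0.93. ALKBH2 and ALKBH3 correlated with each other at r = 0.91, and with MSH6 at r = -0.94 and r = -0.92. PMS2, MPG and APEX1 gave r = 0.08, 0.41 and 0.52 with the marker mean, and MSH3, by its brighter probe, gave r = -0.50. These describe 12 arrays that fall into arrays with and without Y15 and share a normalization, so each r largely restates the Y15 contrast. The part of cell division in the changes of the repair genes was not tested.

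**Figure D5:**
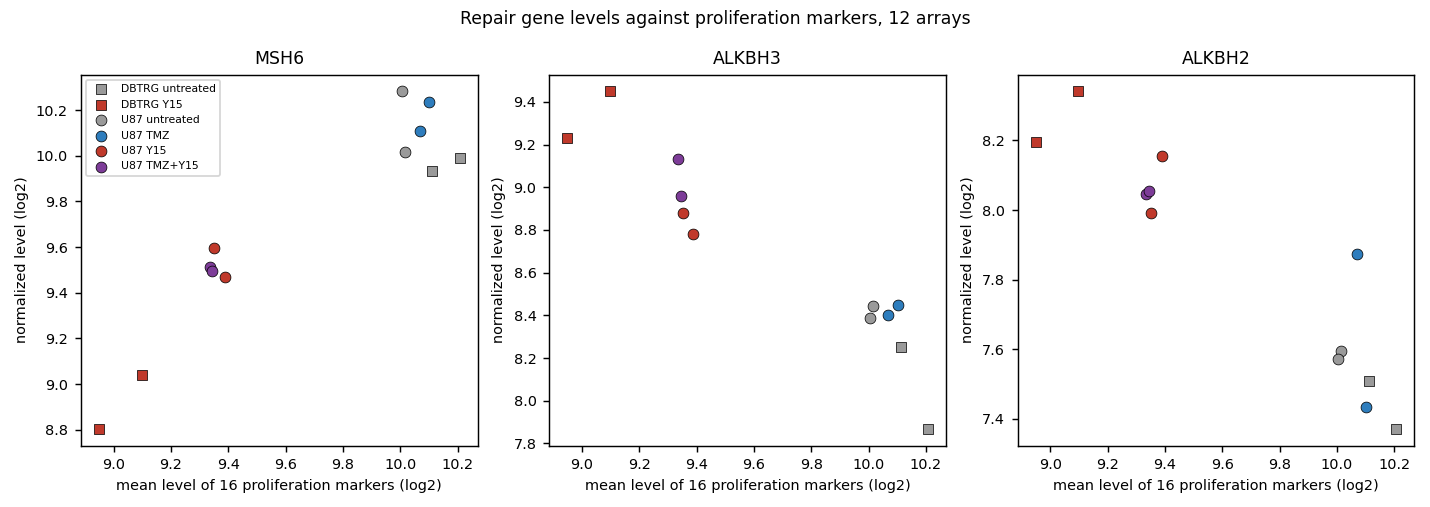
Normalized log2 level of MSH6, ALKBH3 and ALKBH2 (vertical axes) against the mean log2 level of 16 proliferation markers (horizontal axes), with 1 point per array, squares for DBTRG and circles for U87. The 6 arrays with Y15 lie at marker means from 8.95 to 9.39 and the 6 without it from 10.00 to 10.21; the ALKBH levels of U87 with Y15 alone are higher than untreated on this scale and lower under median centring.

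The genes whose pattern was most like each member over the 12 arrays, by Pearson r after subtracting each line's mean, were found among all tested genes. For MSH6 they were BUB1 (r = 0.993), a mitotic checkpoint kinase that is also among the proliferation markers, and AIM2 (r = 0.987). For ALKBH3 they were ATXN3 (r = 0.994) and NMRAL2P (r = 0.987), and for ALKBH2 NUDT2 (r = 0.978) and ZBTB48 (r = 0.969). For PMS2 they were CLEC2B (r = 0.898) and TMEM39A (r = 0.888), and for MPG ARHGAP6 (r = 0.868) and SKP1 (r = 0.852). MSH3, by its brighter probe, was closest to ITIH5 (r = 0.948) and PCLAF (r = 0.947), and APEX1 to RAB5C (r = 0.975) and GEMIN5 (r = 0.945).

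Of the wider AlkB family and the helicase complex that works with ALKBH3, 9 of 10 listed genes were tested. For Y15 in DBTRG 4 were higher and 1 lower (3 and 0 under median centring), and for Y15 in U87 2 were higher and 4 lower (0 and 6 under median centring), where 37.8% and 22% of all genes were called. Over all genes median centring called 2164 higher and 1052 lower in DBTRG, and 413 and 6987 in U87. ASCC3, the helicase that unwinds DNA for ALKBH3, rose by 0.83 ± 0.11 in DBTRG (limma adjusted p = 0.000204), as ALKBH3 did. In U87 it fell by 0.62 ± 0.11 with Y15 (limma adjusted p = 0.003) and by 0.38 ± 0.11 with both agents (limma adjusted p = 0.0289). ASCC2, a subunit of the same complex, rose by 0.47 ± 0.13 in DBTRG (limma adjusted p = 0.0168) and gave 0.14 ± 0.13 in U87 (adjusted p = 0.501). FTO, an RNA demethylase, was lower with Y15 in both lines (-0.67 in DBTRG, -0.86 in U87), and ALKBH1 was higher (0.47 and 0.69, or 0.05 in U87 under median centring). In DBTRG neither was called under median centring (limma adjusted p = 0.0541 for FTO and 0.0544 for ALKBH1).

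Of the mismatch repair partners, 17 of 19 were tested. With Y15 in DBTRG 12 were lower and 1 higher (7 and 1 under median centring), where 37.8% of all genes were called. Their median log2 change was -0.66 after quantile normalization, against 0.01 for all genes. These partners are largely shared with the replication fork. The largest falls were those of RFC2 (-1.26 ± 0.18, limma adjusted p = 0.000405), a subunit of the clamp loader, and of the polymerase delta subunits POLD3 (-1.12 ± 0.13, limma adjusted p = 0.000113) and POLD1 (-0.87 ± 0.14, limma adjusted p = 0.000694). In U87 4 were lower with Y15 (15 under median centring) and 5 with both agents (6 under median centring), and 0 were higher, where 22% and 23.1% of all genes were called. Median centring called 413 of all genes higher and 6987 lower with Y15 in U87, and 686 and 1941 with both agents. For Y15 in DBTRG it called 2164 higher and 1052 lower. EXO1, the exonuclease that removes the mismatched strand, fell in DBTRG (-0.66 ± 0.18, limma adjusted p = 0.0135), in U87 with Y15 (-0.79 ± 0.18, limma adjusted p = 0.0107) and with both agents (-0.69 ± 0.18, limma adjusted p = 0.0186). Its DBTRG change was -0.51 under median centring and was not called there (limma adjusted p = 0.0812).

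Of the base excision partners, 17 of 20 were tested. With Y15 in DBTRG 7 were lower and 2 higher (5 and 2 under median centring), where 37.8% of all genes were called. In U87 3 were lower and 1 higher with Y15 (16 and 1 under median centring), and 5 were lower and 2 higher with both agents (4 and 0), where 22% and 23.1% of all genes were called. Under median centring 6987 of all genes were called lower and 413 higher with Y15 in U87, and 1941 and 686 with both agents. For Y15 in DBTRG 1052 were called lower and 2164 higher. PARP1, which signals strand breaks, was lower with Y15 in DBTRG (-0.89 ± 0.15, limma adjusted p = 0.00105), in U87 (-0.61 ± 0.15, limma adjusted p = 0.0165) and with both agents (-0.80 ± 0.15, limma adjusted p = 0.00434). FEN1, the flap endonuclease of long-patch repair, fell by 0.84, 1.06 and 0.83 in the same order. LIG3, the ligase of short-patch repair, fell in that order by 0.61 ± 0.16, 0.50 ± 0.16 and 0.86 ± 0.16 (limma adjusted p = 0.0109, 0.0441 and 0.00376). LIG3 was detected in only 1 of the 2 U87 arrays with Y15 alone. Its DBTRG call was lost under median centring (-0.50, limma adjusted p = 0.0608). POLB, the polymerase that fills the gap, and its scaffold partner XRCC1 did not pass the test for any treatment after quantile normalization, the lowest adjusted p being 0.0627 for POLB with both agents. MBD4, a thymine glycosylase, was higher in U87 with Y15 (1.28 ± 0.15, limma adjusted p = 0.000262) and with both agents (0.61 ± 0.15, limma adjusted p = 0.014). The MBD4 change with both agents was 0.43 under median centring and was not called there (limma adjusted p = 0.0989). TMZ alone called 0 genes of each of the 3 partner lists by limma, which called 1 gene in all there.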

How the data were processed

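Total RNA of 12 arrays was labelled as biotin cRNA, per the labels' protocols, which speak of frozen tissue although every sample is labelled a cell line. The deposited intensity values are linear signals, 1 per probe and array, and GenomeStudio was used per the submitters' processing notes, its version being not given in the sources used here. Beside each signal the deposited table gives a detection p-value, per the file headers. The authors also deposited log2 values, which equal the quantile-normalized log2 signals without background correction to within 5e-09.

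Signals were background-corrected in limma 3.58.1 (R 4.3.3) by normexp with detection p-values, given an offset of 16, quantile normalized and log2-transformed. The offset understates changes of dim probes. Probes with detection p under 0.01 in at least 2 arrays were kept (19354), and the brightest kept probe of each gene was tested. In the platform annotation 30113 probes had 1 symbol and 8 had several, and 17202 were not listed.

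A model of the 6 group means was fitted over the 12 arrays with lmFit and eBayes (6 residual degrees of freedom). All p-values are two-sided, adjusted by Benjamini-Hochberg over 11423 genes, or over the kept probes where single probes are given, with a threshold of 0.05. Changes are given on the log2 scale with the SE of the fit, and having 2 arrays in each group limits the precision. The fit was also run on simulated data with independent noise around each gene's mean, which could not test the effect of the normalization. Slides and scans are not given in these sources.

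No pairing was used, because no label says that a replicate number marks a shared culture or day. Deviations of same-numbered arrays from their group means correlated at -0.05 to 0.11. The members and lists were chosen with earlier results of these data known. Named partners are the 4 largest called changes per list in each Y15 comparison against untreated cells, plus POLB, PARP1, XRCC1, EXO1 and ASCC3, and only part of them is printed. Alternatives were the normalization, the deposited values, the offset, the filter, the probe chosen, array weights, the arrays fitted, a replicate block and each array left out. The dimmest kept probe of each repair gene was an alternative chosen after seeing the data. Promoter windows are from RefSeq (GRCh38.p14).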

Additional observations from a re-analysis of the deposited data

Results flagged for a closer look

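Y15 was given to both lines at 10 µM, and for 5 of the repair genes and their named partners the response in DBTRG differed from that in U87 by the test of the difference itself. Most of the named partners had been chosen as large called Y15 changes in one line or the other, so nothing is read from how many passed. For ALKBH3 the difference was 0.87 ± 0.20 on the log2 scale (limma adjusted p = 0.0137), with a rise in DBTRG that was larger than the uncalled change in U87.

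For ASCC3, the helicase partner of ALKBH3, it was 1.45 ± 0.15 (limma adjusted p = 0.000297), with a rise in DBTRG and a fall in U87. Both treated arrays lay outside the untreated range in each line. This difference passed in 18 of 18 alternatives.

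MBD4, a glycosylase, gave -1.21 ± 0.21 (limma adjusted p = 0.00339), since it rose in U87 and gave 0.07 ± 0.15 in DBTRG. POLD3, a subunit of polymerase delta, gave -0.72 ± 0.19 (limma adjusted p = 0.0213), and UNG, the uracil glycosylase, gave -0.63 ± 0.20 (limma adjusted p = 0.0473), since both fell in DBTRG and gave -0.40 and -0.20, uncalled, in U87. Under median centring, which moves the median difference of all genes to 0.70, these 3 were not called, at -0.43 (adjusted p = 0.156), -0.07 (adjusted p = 0.847) and 0.21 (adjusted p = 0.571). With 1 array left out, MBD4 was called in 8 of 8 fits, POLD3 in 3 of 8 and UNG in 1 of 8; over the 18 alternatives they were called in 17, 12 and 6.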

How the results depend on the processing

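For Y15 in DBTRG the calls of ALKBH2, ALKBH3 and MSH6 passed in 14 of 14 alternatives, and 3 members were called whichever array was left out. For TMZ alone 0 members were called under every alternative run.

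Leaving out 1 array in turn gave 0 to 1 called members for Y15 in U87, 0 to 2 for the combination against untreated cells, 1 to 2 against TMZ, and 0 to 2 between the untreated lines. MSH6 in U87 kept its call in 2 of 4 such fits for Y15 and 3 of 4 for the combination.

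Median centring called 1 member for the combination against untreated cells, 1 against TMZ, 2 against Y15, 5 between the untreated lines and 2 for the line difference. Over all 11423 genes it called 686 higher and 1941 lower for the combination against untreated cells, and 722 and 2191 against TMZ. The counts were 3642 and 76 against Y15, 1494 and 5710 between the untreated lines, and 5879 and 303 for the line difference. Median centring turned the sign for Y15 in U87 of ALKBH2 (-0.18), ALKBH3 (-0.30), PMS2 (-0.55), ALKBH6 (-0.23), ASCC2 (-0.50) and POLB (-0.60). It did so for APEX1 between the untreated lines (-0.48), and for RPA1 (0.70) and UNG (0.21) in the line difference. The line differences of MSH6 (0.40), PMS2 (0.53), MPG (0.07) and APEX1 (0.61), uncalled on both scales, also turned. Further partners turned there, among them POLD1 (0.23), RFC2 (0.17) and PARP1 (0.50). Signs of other uncalled values turned too and are not listed. The median changes over all genes under median centring were -0.60 for Y15 in U87, -0.18 for the combination, -0.48 between the untreated lines, 0.43 for the combination against Y15 and 0.11 for Y15 in DBTRG.

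Between the untreated lines 2 members were called with the deposited values, an offset of 50, no background correction, detection in at least 4 arrays, array weights, or the dimmest probe, and the line difference gave 2 with the deposited values, an offset of 50 or no background correction. With the replicate block, which pairs by number only, 2 members were called in each of these 2 comparisons. The dimmest probe turned MSH3 to -0.64 for Y15 in U87, -0.84 for the combination, -0.62 against TMZ and 1.08 between the untreated lines. The causes were not tested.

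Median centring changed the count of called partners for Y15 in U87 from 4 to 15 (mismatch repair) and from 4 to 17 (base excision), for Y15 in DBTRG from 13 to 8 (mismatch repair) and from 5 to 3 (AlkB family), and for the combination from 7 to 4 (base excision). Over all 11423 genes it called 413 higher and 6987 lower for Y15 in U87, against 984 and 1532 after quantile normalization. For Y15 in DBTRG it called 2164 and 1052, and for the combination 686 and 1941. Of the partner calls named for U87, those of RFC2 with either treatment and of ASCC3 with the combination were called in 0 of 4 fits with an array left out, those of EXO1, PARP1 and ALKBH1 with Y15 in 2 of 4, and those of LIG3 with Y15 and of EXO1 and MBD4 with the combination in 1 of 4. For Y15 in DBTRG it was 2 of 4 for EXO1 and ASCC2 and 1 of 4 for ALKBH1, and 3 of 4 for FTO and LIG3.

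Every MGMT value lay under the detection limit, so no change in it could be measured, and MPG was detected in 6 of 12 arrays, which limits its comparisons.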
